A study of Mus musculus with 12 samples.

Results

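The genes described here encode 10 subunits and close relatives of AP-1: the Fos family (Fos, Fosb, Fosl1 and Fosl2), the Jun family (Jun, Junb and Jund), and Atf3, Batf and Maff. They were taken as a list of names, chosen with earlier results of these data known. No peak value entered the rule itself. A peak was counted for a gene when its centre lay in the gene body or within 10 kb of it. By this rule 23 of 34118 wild-type (WT) peaks and 23 of 27187 knockout (KO) peaks belonged to the 10 genes. The peaks came from ATAC-seq, in which the Tn5 transposase tags open DNA in nuclei, so that a peak marks an accessible region. The cells were C2C12, an established mouse myoblast line. The WT group had 3 samples of unedited cells, and the Runx1KO group 3 samples of cells knocked out for the transcription factor gene Runx1. Both were collected near confluency at day 0, in a growth medium that contains 20% FBS (fetal bovine serum). Whether the knockout cells descend from 1 clone is not given in the labels. The 2 groups of day 2 in differentiation medium were not analysed here.

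AP-1 is a dimer of basic leucine zipper proteins, usually a Jun protein with a Fos protein, that binds DNA at the sequence TGANTCA. Fos, Fosb, Jun, Junb and Atf3 are immediate early genes: serum and growth factors switch them on within minutes, through MAP kinases and through factors already bound at their promoters. In dividing myoblasts, Fos and Jun proteins are known to hold back MyoD, the factor that drives muscle differentiation. RUNX and AP-1 proteins are also known to bind side by side at many enhancers.

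All peak values came from the replicate 1 library of each genotype, so no value has a replicate error and no difference between WT and KO was tested. The deposited fold enrichment (the peak relative to its local background) and −log10 q depend on the depth of each library, which is unknown. Values from the WT and the KO list are therefore set side by side and not compared. Runx1 itself had 19 WT peaks, 7 of them without a KO partner (beside 27.3% of the whole WT list), and 12 KO peaks, all with a WT partner, but peak lists do not read the edited allele. Of all protein-coding genes, 64.6% had a WT peak and 60.8% a KO peak. Of 7 myoblast markers, 6 had a WT peak and 5 a KO peak. Myod1, Des and Cdh15 had 2 peaks in each list, while Myf5 had none. Of 7 markers of other cell types, 4 had a WT peak and 3 a KO peak. Gfap had 2 WT and 2 KO peaks, Pecam1 had 2 and 1, and Cdh5 had 1 and 2. Cdh1 had 1 WT peak and no KO peak. Ptprc, Epcam and Alb had none.

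RefSeq promoter sequences (GRCm38.p6) were found for 9 of the 10 genes, all but Fosl1, at 11 annotated starts. The first 4 below are shown because their start was inside a peak of both lists, and Batf because it was the one member with the letters of a RUNX site and its start was inside no peak. Each is the strand of the gene, 5′ to 3′, and ends at the base before the start. Capitals mark the letters of the searched motifs, which were an AP-1 site, a CRE (the cyclic AMP response element, bound by CREB and ATF proteins), a RUNX site, an ETS site, a TATA box, an E-box and a CArG box, the site of the serum response factor SRF. A CRE with any base in its middle, the CRE core, a CCAAT box and a GC box were added after the sequences had been seen. The 250 bases lie at chr12:85473640-85473889 for Fos (plus strand), chr4:95052223-95052472 for Jun (minus), chr8:84978749-84978998 for Junb (minus), chr1:191183334-191183583 for Atf3 (minus) and chr12:85686470-85686719 for Batf (plus).
Fos: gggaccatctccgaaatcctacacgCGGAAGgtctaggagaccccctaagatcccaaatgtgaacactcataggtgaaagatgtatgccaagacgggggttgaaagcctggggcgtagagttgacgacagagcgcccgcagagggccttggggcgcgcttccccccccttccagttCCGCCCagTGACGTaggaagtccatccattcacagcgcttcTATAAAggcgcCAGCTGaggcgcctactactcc
Jun: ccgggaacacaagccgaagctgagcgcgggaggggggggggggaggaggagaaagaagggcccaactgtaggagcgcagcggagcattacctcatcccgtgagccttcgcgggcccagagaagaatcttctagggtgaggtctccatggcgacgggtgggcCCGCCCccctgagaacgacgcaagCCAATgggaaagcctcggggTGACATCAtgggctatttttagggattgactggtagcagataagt
Junb: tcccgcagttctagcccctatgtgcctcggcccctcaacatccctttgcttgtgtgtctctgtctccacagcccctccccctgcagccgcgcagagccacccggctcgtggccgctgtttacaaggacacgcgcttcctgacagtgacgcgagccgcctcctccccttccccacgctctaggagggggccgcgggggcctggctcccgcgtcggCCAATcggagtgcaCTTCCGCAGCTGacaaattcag
Atf3: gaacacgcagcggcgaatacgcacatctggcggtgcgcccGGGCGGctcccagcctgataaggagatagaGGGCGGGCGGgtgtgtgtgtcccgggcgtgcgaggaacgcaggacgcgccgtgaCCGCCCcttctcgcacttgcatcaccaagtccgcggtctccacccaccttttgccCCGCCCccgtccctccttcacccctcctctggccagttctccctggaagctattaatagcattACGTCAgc
Batf: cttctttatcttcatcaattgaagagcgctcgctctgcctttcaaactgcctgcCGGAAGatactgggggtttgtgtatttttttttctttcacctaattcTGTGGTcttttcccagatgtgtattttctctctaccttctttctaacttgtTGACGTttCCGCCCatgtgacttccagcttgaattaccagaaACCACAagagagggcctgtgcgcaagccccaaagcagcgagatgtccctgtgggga

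Motifs were searched on both strands of 300-base windows, from 250 bases before to 50 bases after each start, and positions are counted from the start. Fos had a CRE core at -66 to -61 and a TATA box at -33 to -28. Its ETS letters lay at -225 to -220. Jun had TGACATCA at -45 to -38, a CRE with another middle base, and a CCAAT box at -65 to -61. Junb had a CCAAT box at -36 to -32, ETS letters on the minus strand at -22 to -17 and an E-box at -16 to -11. Its TATAAA lay at 1 to 6, after the annotated start. Atf3 had a CRE core on the minus strand at -8 to -3 and 5 GC boxes. All of these matches at Fos, Jun, Junb and Atf3 lay inside both a WT and a KO peak. No match lay in a peak at Batf, where RUNX letters occurred at -149 to -144 and, on the minus strand, at -56 to -51. The full CRE was found at the second of 3 starts of Maff, at -29 to -22. This stretch, at chr15:79347480-79347509 on the plus strand, is shown for the CRE directly after a GC box, 38 bp from the WT summit and 32 bp from a KO summit.
Maff: ggctgGGGCGGTGACGTCActgcatgactg

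The shares that follow are of the 21045 windows at starts of protein-coding genes. An AP-1 site (TGANTCA) was found in 7.04% of them and at none of the 9 members with a window. A CArG box was found in 1.54% of the windows, and likewise at none of these members. Sites more than 250 bases before a start were not searched, so their absence from these genes is not shown. The full CRE, TGACGTCA, was found in 2.26% of all windows and at Maff alone among the members. RUNX letters (TGTGGT) were found in 14.7% of the windows and, among the members, at Batf. ETS letters (CGGAAG) were found in 21.3% of the windows and at 4 members, Fos, Fosl2, Junb and Batf. A TATA box (TATAAA) was found in 12.7% of the windows and at Fos and Junb. The E-box searched (CAGCTG) was found in 15.7% of the windows and at Fos, Junb and Jund. Of the motifs added later, the CRE with any base in the middle (TGACNTCA) was found in 8.13% of the windows and at Jun and Maff. The CRE core (TGACGT) was found in 8.58% of the windows and at 4 members, Fos, Atf3, Batf and Maff. CCAAT letters were found in 38.5% of the windows and at Jun, Junb and Atf3. A GC box (GGGCGG) was found in 46.7% of the windows and at 7 members, all but Junb and Jund. Letters of the CRE or of a variant added later were present at Fos, Jun, Atf3, Batf and Maff. The share of all windows with any of these was not counted, so no excess can be read from this. The shares are per window, whereas Maff could match at any of its starts. Overlapping motifs were counted under each name, as at Maff, where the CRE contains the core on both strands. These matches describe the letters of the windows and do not show binding.

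Every AP-1 family gene had at least 1 peak in each list. Across all 21631 protein-coding genes, 64.6% had a WT peak and 60.8% a KO peak. The genes had a median of 2 peaks in each list, against 1 in each list over all protein-coding genes. Centres lay in the gene body for 5 WT and 6 KO peaks and in the flanks for the others. A WT peak and a KO peak alike covered 6 of the 11 annotated starts, at 5 of 9 genes (Fos, Jun, Junb, Atf3 and Maff). Fosl1 is not among the 9, and its start was not assessed. Of all starts of protein-coding genes, 36.6% were inside a WT peak and 33.9% inside a KO peak. On the map of peaks along the genes, every peak at the other genes than Fosl1 and Atf3 has a partner in the other list.

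**Figure D1:**
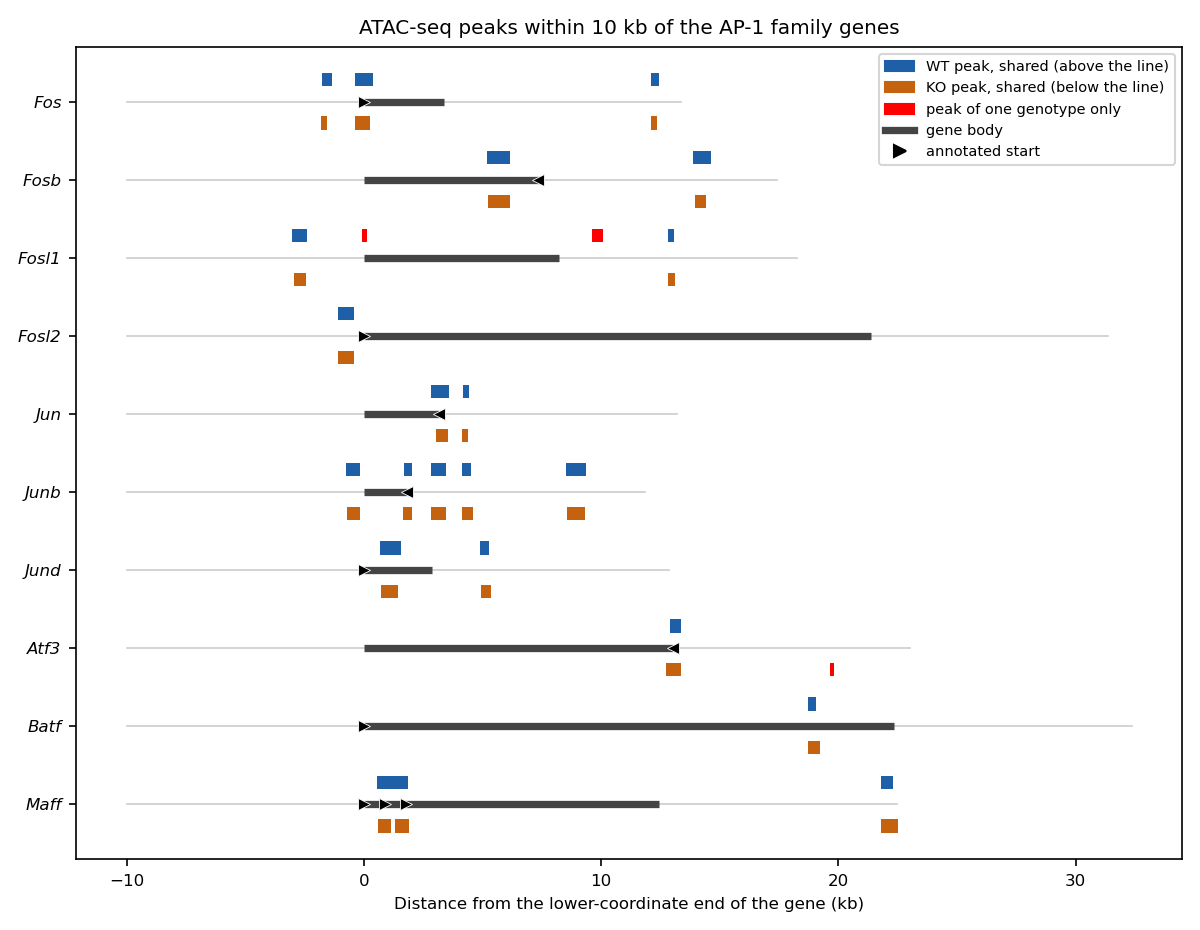
Peaks of the WT list (above each line) and the KO list (below) within 10 kb of the 10 genes, in kb from the lower-coordinate end of the gene; dark bars are gene bodies, arrowheads annotated starts with their direction, and red bars peaks with no partner in the other list. The 2 red WT bars lie at Fosl1, which has no arrowhead because its start was not assessed, and the red KO bar at Atf3.

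Peaks that overlapped by at least 1 bp were taken as the same region, which gave exactly the deposited shared and specific lists. Of the 23 WT peaks, 21 were shared and 2 were WT specific, both at Fosl1. That is 8.7% (95% Wilson interval 2.42 to 26.8, counting error only), beside 27.3% of the whole WT list. Of the 23 KO peaks, 22 were shared and 1, at Atf3, was KO specific. That is 4.35% (0.772 to 21), beside 9.59% of the whole KO list. A WT specific peak was found at 1 of 10 genes, beside 25.3% of all protein-coding genes, and a KO specific peak at 1 of 10, beside 7.46%. Without Fosl1 no WT specific peak was left among 19. Specific peaks were rarer among strong peaks in both lists, and 16 of the 23 WT peaks (69.6%) had a −log10 q no lower than the median of their list. Of these 16, 1 was WT specific (6.25%), beside 6.17% of the equally strong peaks of the whole list. Below the median, 1 of 7 was (14.3%), beside 48.5%. In the KO list 13 of 23 peaks (56.5%) reached the median, none of them specific, beside 1.45% of such peaks in the list. Of the 10 KO peaks below the median, 1 was specific (10%), beside 17.7%. Whether the low shares follow from peak strength was not tested.

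The shared peaks formed 22 overlapping pairs, since 1 WT peak at Maff overlapped 2 KO peaks. The summits, the points of highest signal, lay within 100 bp of each other in 18 of the 22 pairs (86.9% of all 24900 pairs in the lists). They coincided to the base at the Atf3 start and in the body of Jund. The wider distances were 197 bp at the Fos start, 181 and 144 bp at 2 peaks of Junb, and 459 bp at Maff.

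Fos, which encodes the serum-responsive partner of Jun proteins, lies on chromosome 12 (85473890-85477274, plus strand) and had 3 shared regions. The region at its start, chr12:85473506-85474267 in the WT list, had a fold of 9.77 and a −log10 q of 22.8 there, and a fold of 9.19 and a −log10 q of 22.2 in the KO list. It contains the whole printed promoter with its TATA box and CRE core. A region centred 1545 bp before the start in the WT list had a fold of 7.93 (WT) and 6.71 (KO). Another, 8878 bp beyond the end of the gene, had a fold of 7.44 (WT) and 8.44 (KO). Thus all 3 accessible regions of Fos in WT cells were present in both lists.

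Fosb, whose product pairs with Jun proteins and is also known for a truncated splice form, lies on chromosome 7 (19302696-19310118, minus strand). It had 2 shared regions, and neither covered its annotated start. The one in the gene, centred 1668 bp after the start in the WT list, had a fold of 10.11 (WT) and 10.64 (KO). The one 6840 bp outside the gene, at chr7:19316589-19317326, had a fold of 10.69 and a −log10 q of 26.9 in the WT list and a fold of 11.78 and a −log10 q of 35.8 in the KO list. The nearest peak edge was 1173 bp (WT) and 1184 bp (KO) from the start. In the WT list 1 call number was missing between these 2 peaks, in a stretch that holds the start, and in the KO list none was missing.

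Fosl1 encodes Fra-1, a Fos protein without the strong activation domain of Fos that is known as an AP-1 target itself. It lies on chromosome 19 (5447698-5455938) and had 4 WT and 2 KO peaks, the largest difference in number among the 10 genes. The strongest region, at chr19:5444682-5445318 and centred 2698 bp from the lower end of the gene, was shared, with a fold of 14.12 and a −log10 q of 47.9 in the WT list and a fold of 9.92 and a −log10 q of 27.5 in the KO list. The first WT specific peak, chr19:5447626-5447831, spans the lower end of the gene. Fosl1 had no entry among the promoter sequences, so whether this peak covers its start was not assessed. With a fold of 3.79 and a −log10 q of 4.29 it was the weakest of the 23 WT peaks, at percentile 4.3 of its list. The second, chr19:5457305-5457768, had a fold of 8.86 and a −log10 q of 19.5, at percentile 58.7. It lies 1598 bp beyond the upper end of Fosl1 and covers the annotated start of the neighbouring gene Ccdc85b, 26 bp from its centre. The fourth WT peak and its KO partner likewise cover the start of Fibp. Of the 4 WT peaks counted for Fosl1, 2 were therefore at starts of other genes. In the KO list 1 call number was missing in the stretch from 5445271 to 5460536 that contains both WT specific peaks, and the position of that call is not given.

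Fosl2, which encodes Fra-2, lies on chromosome 5 (32136472-32157840, plus strand). It had a single region, shared, just before its start. The WT peak (chr5:32135365-32136059) had a fold of 14.46 and a −log10 q of 63.1, place 3 of the 23 in its list. The KO peak (chr5:32135364-32136074) had a fold of 7.89 and a −log10 q of 23.9, place 11 of the 23 in its own. Summits were 2 bp apart. The start itself lay 413 bp (WT) and 398 bp (KO) outside the peak. The stretch from the peak to the next one, at 32192078 (WT) and 32192028 (KO), reaches beyond the gene. In it 1 call number of each list was missing, at a position that is not given. The depth of each library is unknown, so places 3 and 11 do not show a change, and none was tested.

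In the Jun family, Jun encodes the main activating Jun protein and is known to drive its own promoter through CRE-like sites such as the TGACATCA printed above. It lies on chromosome 4 (95049036-95052222, minus strand). The region at its start, chr4:95051869-95052616 in the WT list, had a fold of 13.65 and a −log10 q of 66.6, and a fold of 9.24 and a −log10 q of 44.9 in the KO list. It was the second strongest member region by −log10 q in each list and also covers the start of Junos, which runs the other way. A weaker shared region lay 1113 bp further out, with a fold of 4.74 (WT) and 5.03 (KO).

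Jund, the Jun gene known for steady expression, lies on chromosome 8 (70697739-70700616, plus strand). Its main region was inside the gene, centred 1122 bp after the start in the WT list, with a fold of 10.38 and a −log10 q of 32.8 there and a fold of 8.30 and a −log10 q of 26.5 in the KO list. The annotated start lay 695 bp (WT) and 707 bp (KO) from that peak. A second shared region, with a fold of 5.98 (WT) and 6.41 (KO), lay in the neighbouring gene Iqcn.

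Junb, which encodes a Jun protein that can oppose Jun on many promoters, lies on chromosome 8 (84976909-84978748, minus strand) and had the most regions of the 10 genes. All 5 were shared: 1 beyond the end of the gene, 1 at the start, and 3 centred 1321, 2476 and 7120 bp before the start in the WT list. In the WT list their −log10 q, in this order, was 50.6, 32.8, 40.2, 63 and 20.9. The KO values were 35.6, 27.4, 25.5, 33.6 and 16.5 for the same regions in the same order. All 5 WT values were above the list median of 16.1, and 4 of 5 KO values above the median of 17.6. Their fold enrichment was low in contrast, 4.12 to 5.76 in the WT list and 3.60 to 4.72 in the KO list, where the list medians were 9.10 and 8.84. Of the 17061 WT peaks whose −log10 q reached the list median, 41 (0.24%) had a fold no higher than the highest of Junb, 5.76, and 5 of these were the Junb peaks themselves. The corresponding KO count was 11 of 13594 (0.0809%) with a fold at or under 4.72, and 4 of them were at Junb. No other member peak in that range of −log10 q had a fold under 7.93 (WT) or 7.89 (KO). This combination was singled out after the values had been seen. In the plot of fold against −log10 q these peaks are the red squares at the left edge of the cloud. The fold divides by the local background, which is not given in the lists, and its part in this was not tested.

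**Figure D2:**
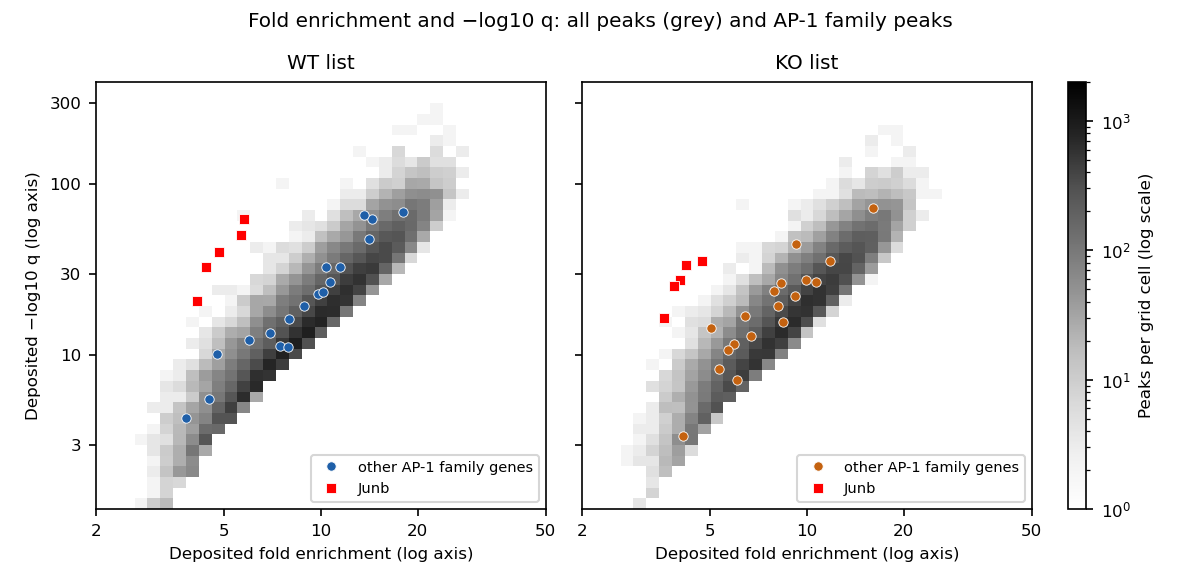
Deposited −log10 q against deposited fold enrichment, both on log axes, for every peak of the WT and the KO list (grey, peaks per grid cell) and for the AP-1 family peaks (circles, Junb as red squares). The Junb peaks, with a fold of 4.12 to 5.76 in the WT list, lie at the left edge of the cloud for their −log10 q.

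Atf3, a stress-induced bZIP repressor that pairs with Jun proteins, lies on chromosome 1 (191170296-191183333, minus strand). Its start held the strongest member region of each list. The WT peak (chr1:191183205-191183682) had a fold of 17.93 and a −log10 q of 68.5, at percentile 97.0 of the list. The KO peak (chr1:191183027-191183671) had a fold of 16.02 and a −log10 q of 72.9, at percentile 98.6, with the same summit. That summit lay 10 bp from a GC box of the printed promoter. The one KO specific peak of the family, chr1:191189932-191190102, lay 6684 bp before the start. It was the weakest of the 23 KO peaks, with a fold of 4.12 and a −log10 q of 3.38, at percentile 1.2 of its list. In the WT list 3 call numbers were missing in the stretch that holds it, from 191183682 to 191222109. Their positions are not given.

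Batf, an AP-1 factor best known from T and B cells, lies on chromosome 12 (85686720-85709087, plus strand) and had 1 weak shared region, in the gene and centred 18885 bp after its start. Its fold was 7.88 (WT) and 6.05 (KO), and its −log10 q 11.1 (WT) and 7.13 (KO). No peak lay at its start with the RUNX letters. The stretch without peaks, from 85619933 to 85705423 (WT) and 85619754 to 85705445 (KO), reaches beyond 10 kb from the gene. In it 1 WT and 2 KO call numbers were missing, at positions that are not given. Maff, a small Maf protein that has no activation domain of its own, lies on chromosome 15 (79346621-79359078, plus strand). Its WT peak chr15:79347192-79348467, with a width of 1276 bp the widest of the family, covered the later 2 of its 3 annotated starts, with a fold of 6.92 and a −log10 q of 13.4. Instead of it, 2 separate KO peaks with a fold of 5.91 and 5.66 covered the same starts. The first start was 571 bp (WT) and 594 bp (KO) from a peak. The other shared region, 9584 bp beyond the gene and inside Tmem184b, had a fold of 11.42 (WT) and 8.11 (KO).

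**Figure D3:**
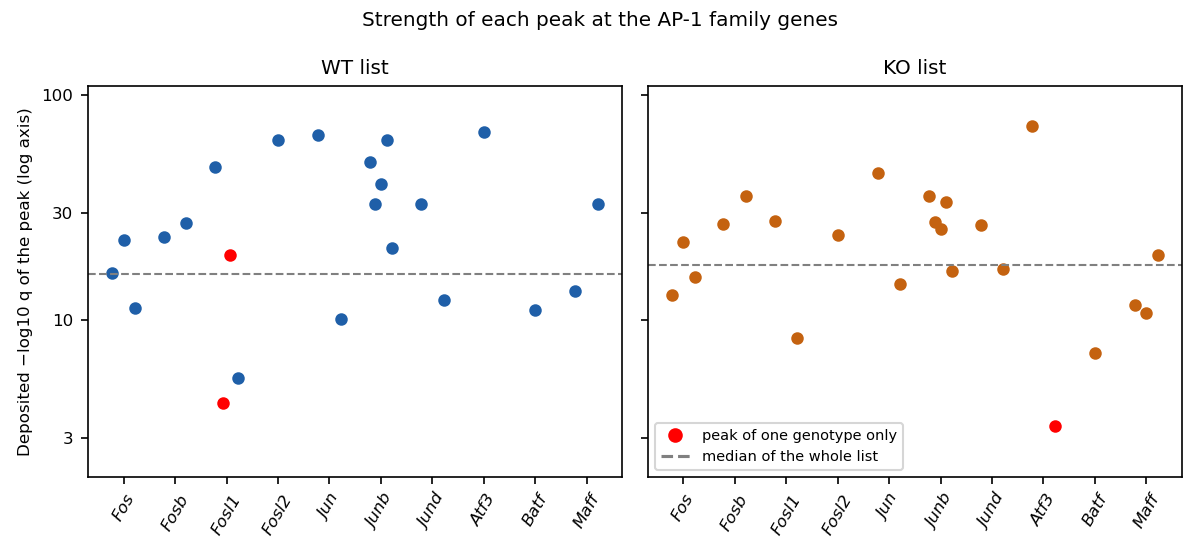
Deposited −log10 q (log axis) of each peak at the 10 genes, in the WT list (left) and the KO list (right); each point is a peak, red points have no partner in the other list, and the dashed line is the median of the whole list (16.1 and 17.6). Atf3 has the highest point in each panel, and the red points include the lowest of each panel.

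Within each list, strength was unevenly spread over the genes. In the WT list 6 of the 23 peaks were above percentile 90 of the list by −log10 q: the start regions of Atf3 and Jun, the region before Fosl2, 2 regions of Junb and the outer region of Fosl1. In the KO list 2 were, at the starts of Atf3 and Jun. The median −log10 q of the member peaks was 23.5 in the WT list, whose own median was 16.1, and 22.2 in the KO list, whose own median was 17.6. Their median width was 494 bp (list 371) and 529 bp (list 421). The median fold was below that of the list, 7.88 beside 9.10 (WT) and 6.41 beside 8.84 (KO), and 5 of the 23 values in each list were those of Junb.

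The 10 kb limit bears on these counts. Just inside it lay a shared region at Maff, 9.58 kb (WT) and 9.71 kb (KO) from the gene. Just outside lay a WT specific peak at Fosb, 10.01 kb away, with a fold of 5.88 and a −log10 q of 9.4, and a shared region at Jund, 10.06 kb (WT) and 10.05 kb (KO) away. Between 10 and 20 kb the WT list held 15 peaks, 2 of them specific, and the KO list 14, of which 1, at Jun, was specific.

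The other genes of the pathway were described by the same rule, and their shares stand beside 27.3% WT specific and 9.59% KO specific peaks in the whole lists. Of 11 dimer partners, 7 had a peak, and 3 of their 17 WT peaks were WT specific (17.6%, interval 6.19 to 41). These were 2 of 5 at Jdp2, a repressive Jun partner, and the single peak at Maf. None of their 14 KO peaks was specific, and Batf2, Atf4 and Mafg were among the genes with no peak. All 10 upstream kinases and factors had a peak, and 8 of 23 WT peaks (34.8%, interval 18.8 to 55.1) and 3 of 18 KO peaks (16.7%, interval 5.84 to 39.2) were specific. Mapk3, a kinase that carries the serum signal, had 2 WT peaks, and both were WT specific. Mapk14, Elk3, Elk4 and Creb1 had 1 each, and Mapk3, Elk4 and Creb1 had 1 KO specific peak each. Srf had 2 shared regions.

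All 9 co-induced immediate early genes had a peak, and 5 of 29 WT peaks (17.2%, interval 7.6 to 34.5) and 1 of 25 KO peaks (4%, interval 0.71 to 19.5) were specific. The WT specific ones were 2 each at Ier2 and Zfp36 and 1 at Egr2, and the KO specific one was at Nr4a1. Of 10 known AP-1 targets, 8 had a peak, and 7 of 29 WT peaks (24.1%, interval 12.2 to 42.1) and none of 22 KO peaks were specific. Hbegf, a growth factor of the EGF family, had 4 of them among 5 WT peaks and a single, shared KO peak. Timp1 had 2 and Ccnd1 had 1, while the matrix metalloproteinase genes Mmp3 and Mmp13 had no peak in either list. The WT interval of each of these 4 lists of genes contains the 27.3% of the whole list and overlaps that of the AP-1 family genes. The KO interval of each contains the 9.59% of the whole KO list. The differences between lists of genes were not tested.

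**Figure D4:**
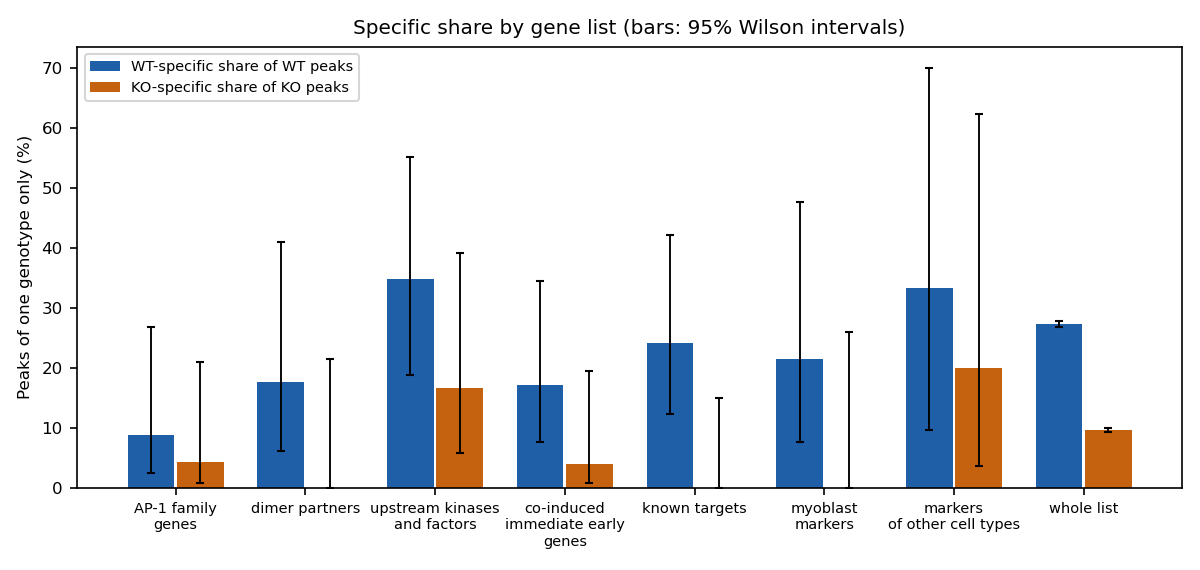
Share of peaks with no partner in the other list, in percent, for the AP-1 family genes, the other gene lists and the whole lists, for WT peaks (blue) and KO peaks (orange); bars start at 0 and error bars are 95% Wilson intervals, which cover counting error only. The AP-1 family has the lowest WT bar (8.7%), with an interval up to 26.8%.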

How the data were processed

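ATAC-seq peaks of C2C12 cells in growth medium were read from 5 deposited lists in narrowPeak layout without a header. The name of every peak gives its genotype and replicate 1. The labels put 3 samples in each genotype, and no value of replicates 2 and 3 was used here. The fold enrichment (a ratio of peak to local background) and the −log10 q of each peak are the authors' values, as deposited. The numbers in the peak names skip, so the lists do not hold every numbered call. The rule behind this, the aligner and the peak caller are not given in the sources used here. The build is mm10 per the submitters' processing notes, and gene and promoter positions came from RefSeq tables of GRCm38.p6, the same assembly. Read depth is unknown, since the lists hold no counts. Peaks were taken as given, with coordinates counted from 1. No sequence outside the promoter windows was used here.

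Partners overlapped by at least 1 bp. Shares have 95% Wilson intervals, which treat peaks as independent and cover counting error only. All 10 genes are named with every peak, and of the other lists the genes with a specific peak or with none, apart from some that are not reported here. The members, the lists and the motifs were chosen with earlier results of these data known. No test was run. The overlap function was tested on simulated data against bedtools 2.31.1, and the assignment of peaks to a gene against a known answer. In all, 5 of 5 checks passed. Alternatives changed the distance, the assignment, the threshold, the position and the overlap. Python 3.11.15, pandas 2.3.3 and scipy 1.17.1 were used.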

Additional observations from a re-analysis of the deposited data

How the results depend on the processing

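Under 11 alternatives, 2 of them chosen after seeing the data (leaving out peaks that cover the start of another gene, and leaving out Fosl1), the counts followed the distance allowed. In the gene body alone there were 5 WT and 6 KO peaks, and within 50 kb 69 WT and 65 KO peaks. Under the others the totals over the family were within 1.5 times of those reported. Counts at single genes moved beyond that for 7 of 40 at a −log10 q of at least 10. With the nearest gene body within 10 kb, 6 of 40 moved. At Fosl1 the WT peaks fell from 4 to 2, and the WT specific ones from 2 to 1, under both. The same held without peaks at starts of other genes. The WT specific share of the family ranged from 5.56% to 20% under 9 of the alternatives. It was 0% without Fosl1 and 5% without peaks at starts of other genes. The KO specific share was 0% in the gene body, within 5 kb and at a −log10 q of at least 10 in both lists, each of which drops the weak peak at Atf3. It was at most 17.4%, with a reciprocal overlap of 50%. The whole-list shares under the changed overlap rules were not computed, so 27.3% and 9.59% are no measure for those. At a −log10 q of at least 10, the WT specific share was 9.52%, beside 24.1% of the whole WT list. The whole KO list had 12.2% there. At that threshold of −log10 q, the peak of Batf lost its KO partner and became WT specific. With the summit in place of the centre, the WT specific peak at the edge of the Fosb window was counted, for 3 of 25 peaks (12%). No paired analysis was possible because the lists hold the values of 1 library per genotype, and no replicate could be left out for the same reason. The absence of a peak does not show closed chromatin at unknown depth.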

Other observations

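A stretch of chromosome 8 from 84 to 85 Mb was looked at because it contains Junb. With the Junb peaks left out, 36 WT peaks had a −log10 q at or above the list median and a fold at or under the highest Junb fold of 5.76. Of these 36, 7 were on chromosome 8, beside 6.23% of all 17056 WT peaks of that −log10 q. In the stretch lay 3 of the 36, beside 56 of the 17056 (0.328%). In the KO list, 7 peaks other than those of Junb had a −log10 q at or above the list median and a fold at or under 4.72. Of these 7, 3 were on chromosome 8, beside 6.44% of all 13590 KO peaks of that −log10 q. In the stretch lay 2 of the 7, beside 44 of the 13590 (0.324%). These counts are small and were not tested.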
